A study of Rattus norvegicus with 17 samples.

Results

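Of the 34322 genes in the count table, 10 genes of brain vessels are described here, chosen by name with earlier results of these data known. They are the growth factor gene Vegfa, its receptor genes Flt1 and Kdr, the endothelial adhesion and junction genes Pecam1 and Cldn5, the endothelial transporter genes Slc2a1 and Abcb1a, and the pericyte-associated genes Pdgfrb, Rgs5 and Vtn. All 10 passed the filter on low counts in every comparison. RNA was sequenced from the hippocampus of 17 adolescent Long-Evans rats. Of these, 5 came from a dam given a liquid diet with 6.7% ethanol (ET), 6 from a pair-fed dam given the liquid diet without ethanol in matched amounts (PF), and 6 from a dam fed chow ad libitum (AD), each diet over gestational days 0 to 20. The rats were taken at 36 to 38 days of age, and each diet group was 1 litter, so diet and litter cannot be told apart in any comparison. The left hippocampus was used except in 4 rats (1 ET, 2 PF and 1 AD). Nothing in the tissue was sorted, so each value is a total over all cells of the piece dissected.

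Brain capillaries are tubes of endothelial cells wrapped by pericytes in a shared basement membrane. Their endothelial cells are sealed by tight junctions and carry dedicated transporters, which together form the blood-brain barrier. VEGF-A, made in the brain largely by cells outside the vessel wall such as astrocytes, acts on endothelial receptors to guide vessel growth and survival, and its gene is a classic target of the hypoxia-inducible factors (HIF).

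Between 10853947 and 17498392 fragments were counted per library. Following the study, 3 libraries that stand apart were left out of the fits, 1 from each diet (ET replicate 2, PF animal 11f6 and AD replicate 4), which leaves 4 ET, 5 PF and 5 AD libraries. In these 3, the summed level of 10 choroid plexus genes was 128180.1 to 151005.2 normalized counts, against 2848.7 to 23238.8 in the other 14. Normalized counts are deposited counts scaled to a common library size, and they are not corrected for gene length, so levels are compared between libraries and never between genes. Genes of the Y chromosome and a transcript otherwise high in the female-labelled libraries went against the labelled sex in 2 AD libraries, replicates 1 and 2. The vessel genes were present in every library, with a lowest value for any of the 10 genes of 259.7 normalized counts.

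The 250 bases before the annotated start of 4 of the genes are shown, since Cldn5 and Slc2a1 followed each other most closely across libraries, and Flt1 and Vegfa had the smallest unadjusted p-values of the 10 in the diet comparisons. They come from RefSeq, assembly GRCr8, which differs from the mRatBN7.2 assembly that the authors mapped to, and 8 of the 10 genes had an entry. Capitals mark ACGTG and GCGTG on either strand (CACGT and CACGC when read on the other strand), the core letters of the HIF response element.
Cldn5, chr11:95718599-95718848, minus strand: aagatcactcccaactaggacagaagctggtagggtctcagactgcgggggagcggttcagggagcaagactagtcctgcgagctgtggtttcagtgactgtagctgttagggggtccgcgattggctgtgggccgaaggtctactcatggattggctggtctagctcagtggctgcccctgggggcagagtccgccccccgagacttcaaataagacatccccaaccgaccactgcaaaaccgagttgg
Slc2a1, chr5:138002272-138002521, plus strand: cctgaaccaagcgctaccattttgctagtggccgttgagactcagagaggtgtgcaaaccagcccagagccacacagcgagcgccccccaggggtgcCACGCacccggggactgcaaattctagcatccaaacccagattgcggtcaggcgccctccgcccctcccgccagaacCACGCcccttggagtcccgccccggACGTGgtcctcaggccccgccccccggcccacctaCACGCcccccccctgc
Flt1, chr12:12333180-12333429, plus strand: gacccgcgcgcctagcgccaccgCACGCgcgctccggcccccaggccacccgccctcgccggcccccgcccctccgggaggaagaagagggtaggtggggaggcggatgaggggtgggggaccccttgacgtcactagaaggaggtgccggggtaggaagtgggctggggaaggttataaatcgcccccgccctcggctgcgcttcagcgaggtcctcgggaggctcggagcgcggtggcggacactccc
Vegfa, chr9:22452604-22452853, plus strand: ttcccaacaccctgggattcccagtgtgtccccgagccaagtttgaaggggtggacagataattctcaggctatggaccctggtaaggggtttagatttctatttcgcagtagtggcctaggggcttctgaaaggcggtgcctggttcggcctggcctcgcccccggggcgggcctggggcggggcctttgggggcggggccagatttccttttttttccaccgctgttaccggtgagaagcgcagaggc

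The Slc2a1 window held 4 such matches, 1 of ACGTG and 3 of GCGTG, the Flt1 window held 1 match of GCGTG, and the Cldn5 and Vegfa windows held none. For comparison, 36.7% of the 33469 windows of this length in the RefSeq set held at least 1 match. The GC box GGGCGG, searched on both strands, was found 3 times each in the Slc2a1, Flt1 and Vegfa windows and 1 time in the Cldn5 window, and 30.5% of all windows held it. TATAAA was found in the Flt1 window, as in 12.9% of all windows. These matches are letters in a window and were not tested as binding sites.

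ET was compared with PF, where both dams received the liquid diet and 1 of them ethanol in it, each with a single litter. The study's threshold combines an adjusted p under 0.01 with a log2 fold change beyond 1.5 in either direction. It was passed by 0 of the 10 genes, where 349 of 16068 genes tested (2.17%) did. At an adjusted p below 0.05 with any fold change, 0 of the 10 and 664 of 16068 genes (4.13%) were called by the quasi-likelihood test of edgeR. DESeq2 called 0 of the 10 under either threshold. At an unadjusted p below 0.05 there were 0 of the 10 and 1917 of 16068 genes (11.9%). This count of 0 changed with the libraries and settings: it was 3 without ET replicate 1, 2 with all 17 libraries and in 1 fit of the 3 diets, and 1 with DESeq2, median-of-ratios scaling, the replicate number as a block, without both libraries with the most Ttr and without ET replicate 3, ET replicate 5, PF replicate 2 or PF replicate 6. The log2 fold changes of the 10 ran from -0.19 to 0.13, with 7 below 0, and their median was -0.10 against 0.01 over all genes tested. The widest 95% confidence bounds among them were -0.41 and 0.46, or 0.751-fold and 1.38-fold, and these lie inside the study's fold threshold. In bulk tissue, fewer cells of a type and less RNA per cell cannot be told apart.

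**Figure D1:**
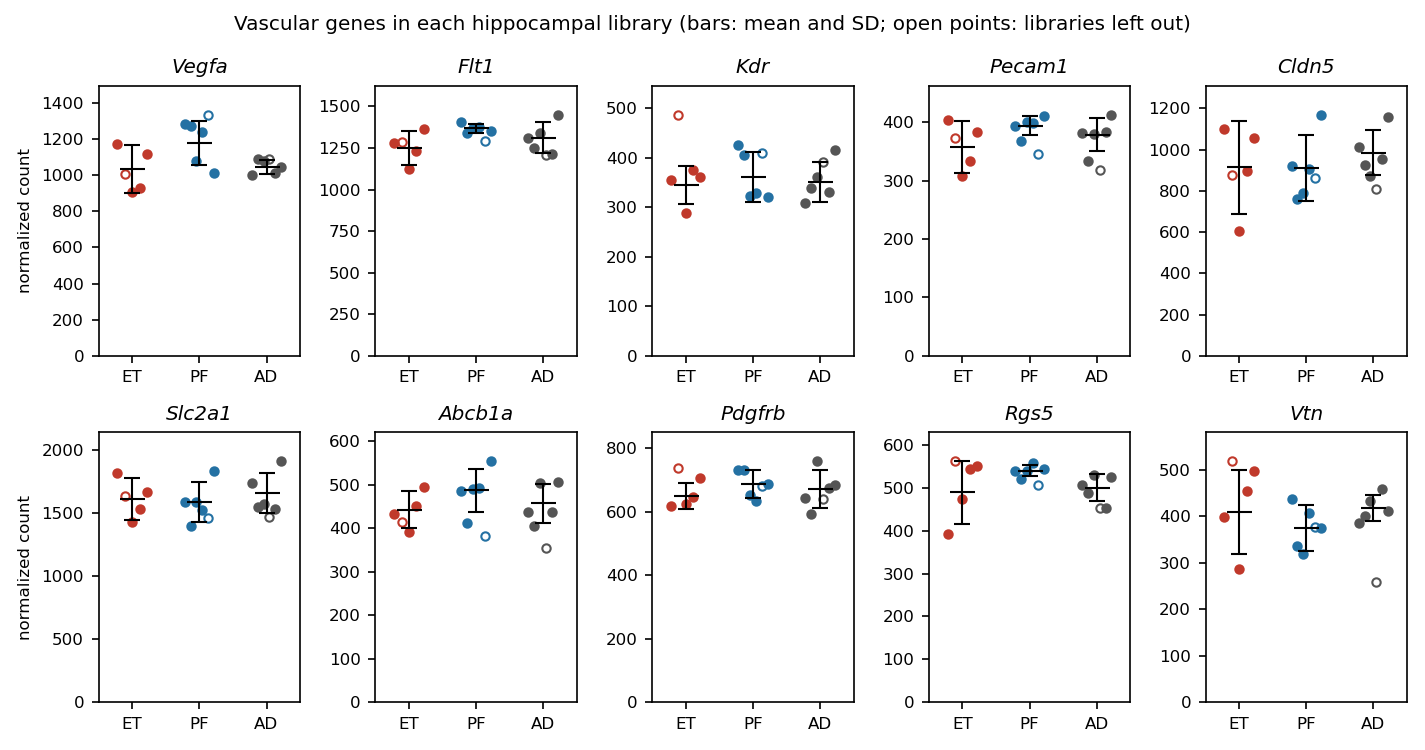
Normalized count (vertical axis, from 0) of each of the 10 vascular genes in every library by diet group. Filled points are the 14 libraries of the fits, open points the 3 left out, and bars the mean and SD of the filled points; the diet groups overlap for all 10 genes.

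Vegfa, the ligand, had 909, 931, 1119 and 1172.5 normalized counts in the 4 ET libraries. In the PF libraries it had 1012, 1079, 1239, 1274 and 1282, and in the AD libraries 1003.5, 1013, 1043, 1079.6 and 1088. Of the 5 PF libraries, 3 lay above every ET and AD library and 2 lay among them, so the groups overlapped. The means were 1033 ± 132 (SD, n = 4) in ET, 1177 ± 124 (n = 5) in PF and 1045 ± 37.9 (n = 5) in AD. The log2 fold change of ET against PF was -0.19 (SE 0.10, 95% confidence interval -0.41 to 0.04), with an adjusted p of 0.567 in edgeR's quasi-likelihood test. PF against AD gave 0.17 (SE 0.07, interval 0.02 to 0.32), the only interval among the 30 of the 3 diet comparisons that did not contain 0, with an unadjusted p of 0.0281 and an adjusted p of 0.227 by edgeR. This value turned on PF replicate 6, the PF library with the lowest Vegfa: without it the log2 fold change was 0.22 and the adjusted p 0.0399, while leaving out any other single library gave 0.174 to 0.416.

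Flt1 encodes VEGFR1, which binds VEGF-A tightly and also exists as a soluble trap. Its levels were 1123, 1233, 1281 and 1362 in ET, 1338, 1352, 1372.5, 1378 and 1408 in PF, and 1211, 1252, 1311, 1340.3 and 1449 in AD. Of the 4 ET libraries, 3 lay below all PF libraries and ET replicate 5 among them. The PF libraries were close together, with a coefficient of variation of 1.95%, against 7.99% in ET and 6.95% in AD. The log2 fold change of ET against PF was -0.13 (SE 0.06, interval -0.26 to 0.00), with an unadjusted p of 0.0501 and an adjusted p of 0.419 by edgeR. Without ET replicate 3 it was -0.08, and in the fit with a replicate block -0.21. In this comparison 1918 of the 16068 genes had a smaller p than Flt1. In GRCr8 Flt1 overlaps the pseudogene LOC134481311 and the long non-coding RNA genes LOC102547586 and LOC120095883. The part that shared reads have in the Flt1 counts was not tested.

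Kdr encodes VEGFR2, the main signalling receptor for VEGF-A on endothelium. Its levels were 288, 355, 361 and 375 in ET, 321, 322, 329, 405 and 426 in PF, and 309, 331, 339, 362 and 416 in AD. ET replicate 2, left out of the fits, had 487, above the other 16 libraries. The log2 fold changes were -0.06 in ET against PF, -0.03 in ET against AD and 0.04 in PF against AD, each with an SE of 0.10 to 0.11.

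Pecam1 encodes CD31, an adhesion molecule at endothelial cell contacts. Its levels were 309, 332.8, 383.5 and 404 in ET, 367.5, 394, 398, 400.1 and 411 in PF, and 334, 379, 382, 383 and 412.5 in AD. ET replicates 3 and 4 lay below all PF libraries and the other 2 ET libraries within the PF range. The log2 fold change of ET against PF was -0.14 (SE 0.08, adjusted p = 0.633, edgeR).

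Cldn5 encodes claudin-5, the principal claudin of the brain endothelial tight junction. It had 605, 895, 1055 and 1099 normalized counts in ET, 761, 789, 907.5, 919.9 and 1168 in PF, and 871.5, 927, 952, 1013 and 1158 in AD. ET replicate 3 had the lowest value of all 17 libraries, and the PF range spanned the other ET values. The means were 914 ± 224 (SD, n = 4), 909 ± 161 (n = 5) and 984 ± 109.5 (n = 5), and the log2 fold change of ET against PF was 0.01 (SE 0.18). Cldn5 was the most variable of the 10 genes within diets, with a coefficient of variation of 18.6%, and 76.4% of the genes that passed the filter varied less. Flt1 was the least variable at 6.22%, with 16.7% of genes below it, and the median over all genes was 11%.

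Slc2a1 encodes GLUT1, the glucose transporter of the barrier endothelium, and is expressed in astrocytes as well. Its levels were 1426, 1532.5, 1663.5 and 1816 in ET, 1399.9, 1521, 1584, 1588 and 1833 in PF, and 1533, 1551, 1572, 1733 and 1908 in AD. All 3 groups covered nearly the same range. The log2 fold changes were 0.02 in ET against PF (interval -0.17 to 0.22), -0.04 in ET against AD and -0.07 in PF against AD.

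Abcb1a encodes a P-glycoprotein efflux pump that keeps drugs out of the brain. Its levels were 391, 433, 451 and 494.5 in ET, 412, 486, 489.9, 493 and 553 in PF, and 405, 436, 437, 503 and 505 in AD. The groups overlapped, and the log2 fold change of ET against PF was -0.13 (SE 0.09, adjusted p = 0.703, edgeR). Abcb1a has a close paralog, Abcb1b, at 32.6 to 96.8 normalized counts in the 14 libraries, and in GRCr8 it overlaps Rundc3b, at 554 to 655.5. The authors let a read count for more than 1 feature, so how reads were divided among these genes is uncertain.

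Pdgfrb encodes the receptor through which endothelial PDGF-B recruits pericytes. Its levels were 618, 625, 648 and 708 in ET, 634, 652, 687, 731.5 and 732 in PF, and 593, 644, 674, 685 and 758 in AD. Rgs5, a regulator of G-protein signalling abundant in pericytes, had 393, 473, 542 and 549 in ET, 519, 539.5, 539.6, 543 and 556 in PF, and 452, 488, 506, 525 and 529.5 in AD. For Rgs5, 4 of the 5 PF libraries lay above all AD libraries, and the log2 fold change of PF against AD was 0.11 (SE 0.05, interval 0.00 to 0.22, unadjusted p = 0.0513, adjusted p = 0.308, edgeR). For Pdgfrb the 3 log2 fold changes lay between -0.08 and 0.04.

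Vtn encodes vitronectin, an adhesive matrix protein that brain pericytes produce. Its levels were 287, 399, 454 and 497 in ET, 319, 336, 375.5, 407 and 438 in PF, and 386, 399.9, 412, 432 and 458 in AD. The ET libraries spanned both control groups, with ET replicate 3 below and ET replicates 4 and 5 above all PF libraries. The log2 fold changes were 0.13 in ET against PF (SE 0.15), -0.03 in ET against AD (SE 0.14) and -0.15 in PF against AD (SE 0.09). AD replicate 4, left out of the fits, had the lowest Vtn of all libraries at 259.7.

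**Figure D2:**
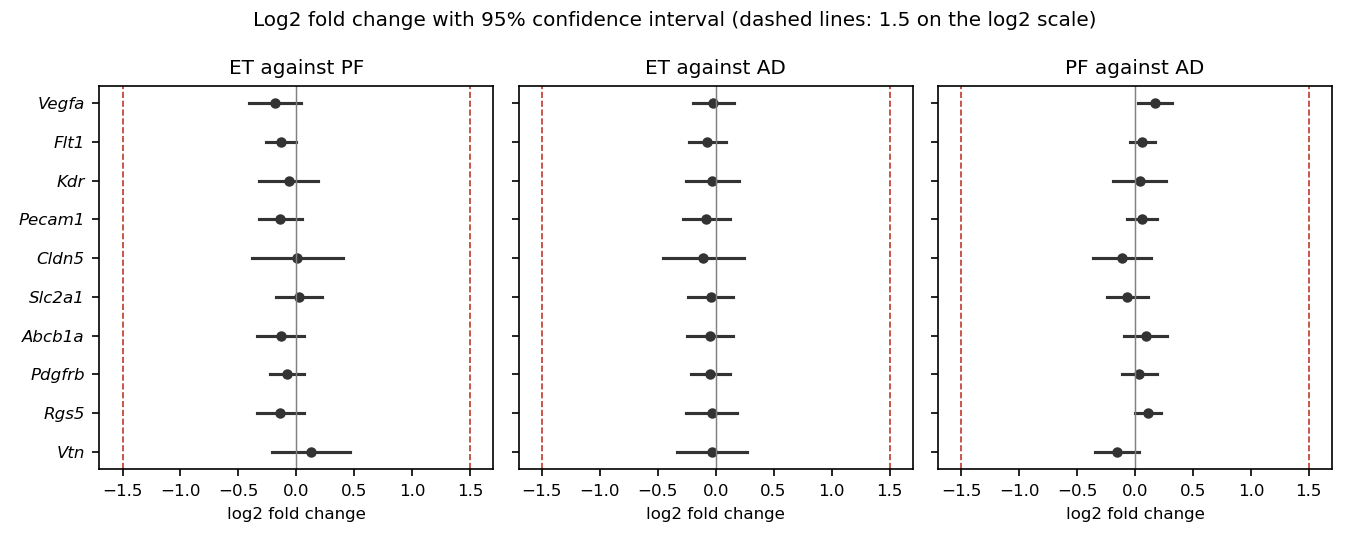
Log2 fold change (horizontal axis) of the 10 vascular genes in the 3 diet comparisons, with the 95% confidence interval as a line. Every interval lies inside the dashed lines at 1.5 on the log2 scale, and only that of Vegfa in PF against AD lies wholly to one side of 0.

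ET was also compared with AD, the rats whose dam ate chow. All 10 log2 fold changes were below 0, between -0.11 and -0.02, with a median of -0.05 against 0.00 over all genes tested, and none had an unadjusted p below 0.05, where 432 of 15749 genes (2.74%) did. No gene of the 10 was called by edgeR or DESeq2 under either threshold, where edgeR called 2 of 15749 genes (0.0127%) by the study's threshold and the same number at an adjusted p below 0.05. The shared sign depended on the libraries used. Without ET replicate 3, 6 of the 10 lay above 0 and 4 below, and the median was 0.01. With all 17 libraries 4 lay above 0, without AD replicate 6 or with the replicate number as a block 2 did, and without ET replicate 1, ET replicate 4 or AD replicate 5 1 did. In PF against AD, 0 of the 10 were called under the study's threshold, where 327 of 15960 genes (2.05%) were, and 0 at an adjusted p below 0.05, where 825 genes (5.17%) were. DESeq2 also called 0 of the 10 there, and 1 of the 10, Vegfa, had an unadjusted p below 0.05 in edgeR, against 2622 of 15960 genes (16.4%). The median of the 10 was 0.05 with 7 above 0, against 0.00 over all genes. The 3 diet comparisons share libraries pairwise, so they are not independent of each other.

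The sexes were compared in ET and PF, where the sex-linked genes matched the labels. None of the 10 was called between males and females by edgeR, where 5 of 16270 genes (0.0307%) were, or by DESeq2. Abcb1a had the smallest p of the 10 at a log2 fold change of male against female of 0.18 (SE 0.08, unadjusted p = 0.043, adjusted p = 1, edgeR), and Cldn5 and Vtn had the largest values, 0.27 (SE 0.16) and 0.27 (SE 0.14). Without ET replicate 1 the largest of the 10 values was 0.45 and the smallest unadjusted p 0.00415, with an adjusted p of 0.549 by edgeR. No difference of the diet effect between the sexes was detectable at this size: 0 of the 10 and 0 of 16484 genes (0%) were called by edgeR, 0 of the 10 by DESeq2, and 0 of the 10 had an unadjusted p below 0.05. Without ET replicate 1, 2 of the 10 had such a p, all 10 values lay above 0 and their median was 0.21 against 0.10 with it. Without ET replicate 3, 2 of the 10 had such a p (smallest 0.00594, adjusted p = 0.287, edgeR) and the median was -0.02, and 1 did with all 17 libraries or without PF replicate 3. The intervals of this interaction reached from -0.94 to 0.96, or 0.522-fold to 1.95-fold, so sex-specific differences of smaller size could not be resolved with 2 to 3 rats per sex and diet.

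Libraries of one diet also differed among themselves. ET replicate 3 was the lowest of the 4 ET libraries for 8 of the 10 genes (all but Pdgfrb and Rgs5), AD replicate 6 was the highest AD library for 6, and PF replicate 2 the lowest PF library for 6. The summed level of the 10 genes was 6437 in ET replicate 3, against 7392.5 to 8192 in the other 3 ET libraries, 7546 to 8255 in PF and 7376 to 8513 in AD. After diet means were removed, Cldn5 and Slc2a1 had a Pearson r of 0.86 over the 14 libraries (Spearman rho 0.89, and r 0.83 without the 2 libraries farthest from the median of Cldn5). Among Cldn5, Flt1, Pecam1, Slc2a1 and Abcb1a, all 10 pairs had an r between 0.65 and 0.86, and between 0.43 and 0.83 without the 2 farthest libraries. Kdr had an r of 0.13 to 0.595 with these 5, and the pericyte-associated genes Pdgfrb, Rgs5 and Vtn had -0.14 to 0.63 with them, and 0.32 to 0.39 with each other. Vegfa was closest to Kdr at 0.565 and lowest with Rgs5 at -0.25. These coefficients are descriptions over libraries that share dissection, depth and RNA composition.

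**Figure D3:**
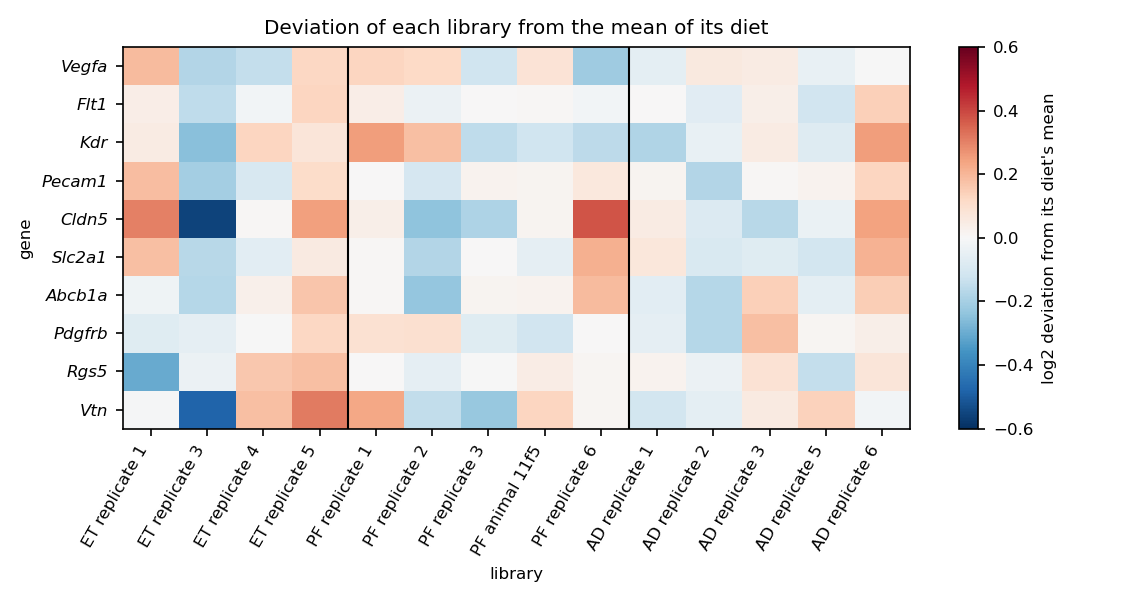
Deviation of each of the 14 libraries (horizontal axis) from the mean of its diet for each of the 10 genes (vertical axis), on the log2 scale, red above and blue below. The column of ET replicate 3 is blue in all 10 rows, and Cldn5, Slc2a1 and Pecam1 share the sign of their deviation in 9 of the 14 libraries.

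Among the 16272 genes that passed the filter over the 3 diets, the gene most like Cldn5 in this measure was Ppdpf (r = 0.98), followed by Rex1bd and Sox18 (both 0.98), of which Sox18 encodes an endothelial transcription factor. Flt1 was closest to Cyyr1 (0.95), Pecam1 to Pepd (0.93) and Tmem204 (0.90), and Slc2a1 to Cdk2ap2 (0.97) and Thsd1 (0.94). Abcb1a had Epb41l2 (0.89), Ltbp4 (0.88) and Slc7a5 (0.87) as its nearest genes, the last encoding the large neutral amino acid transporter of the barrier. Kdr was closest to Rfc3 (0.94), Tnnt2 and Resp18 (both 0.89), Pdgfrb to Plekhf2, Cped1 and Crispld2 (0.89 to 0.90), Rgs5 to Hps4 (0.89), Gstm4 (0.87) and Tmc7 (0.85), Vtn to Il17rc (0.90), Megf6 and Slc22a6 (both 0.89), and Vegfa to Lta4h (0.94), LOC103690742 (0.93) and Ssbp2 (0.92). Flt1 was also close to Trnv and LOC120102384 (both 0.90), and Pecam1 to LOC120093693 (0.90). These are descriptions over 14 libraries, and no test was made.

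Wider vascular lists were read from the same fits. Of 25 further pan-endothelial genes tested in ET against PF, 1 passed the study's threshold, lower in ET, and 0 were higher, with a median log2 fold change of -0.05. Over all 16068 genes tested, 343 (2.13%) passed that threshold lower in ET and 6 (0.0373%) higher. Of 26 genes of barrier junctions and transport, 16 of VEGF, angiopoietin and Notch signalling, 14 of the WNT barrier programme, 19 of pericytes and smooth muscle, 16 of the vascular basement membrane and 18 HIF and hypoxia targets, 0 were called in ET against PF in either direction, also at an adjusted p below 0.05, by edgeR. At that adjusted p, 664 of all 16068 genes (4.13%) were called. At an unadjusted p below 0.05 these 6 lists held 2, 1, 1, 4, 1 and 2 genes, where 1917 of 16068 genes (11.9%) had such a p. Their medians lay between -0.08 and 0.05. In ET against AD, 0 genes of the 7 lists were called by edgeR, where 2 of 15749 genes (0.0127%) were at either threshold. There 1 gene, in the list of pericytes and smooth muscle, had an unadjusted p below 0.05, against 2.74% of all genes.

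The pan-endothelial gene past the threshold was Icam2, which encodes an adhesion molecule of endothelium and blood cells. It had 12.7 to 17.3 counts, averaged over technical replicates and not normalized, in all 6 PF libraries and 0 to 1 in the 5 ET and 6 AD libraries. Every PF library lay above every ET and AD library, those left out of the fits included. Because ET and AD were at or under the floor of 3 counts per library, the PF mean of 13.8 normalized counts was at least 4.8-fold higher than ET and at least 4.61-fold higher than AD. The adjusted p was 2.59e-05 in ET against PF and 1.03e-05 in PF against AD by edgeR. In the 19 alternatives for ET against PF it stayed below 0.05 in 19 and passed the study's threshold in 18, and in PF against AD it did so in 20 of 20. In GRCr8 Icam2 overlaps Prr29, which had 29.7 to 44.8 normalized counts in the PF libraries of the fits, 25.6 to 32.8 in ET and 22 to 28.8 in AD, and the part that shared reads have in the Icam2 counts was not tested. The other 24 of the 25 pan-endothelial genes did not pass either threshold in ET against PF.

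**Figure D4:**
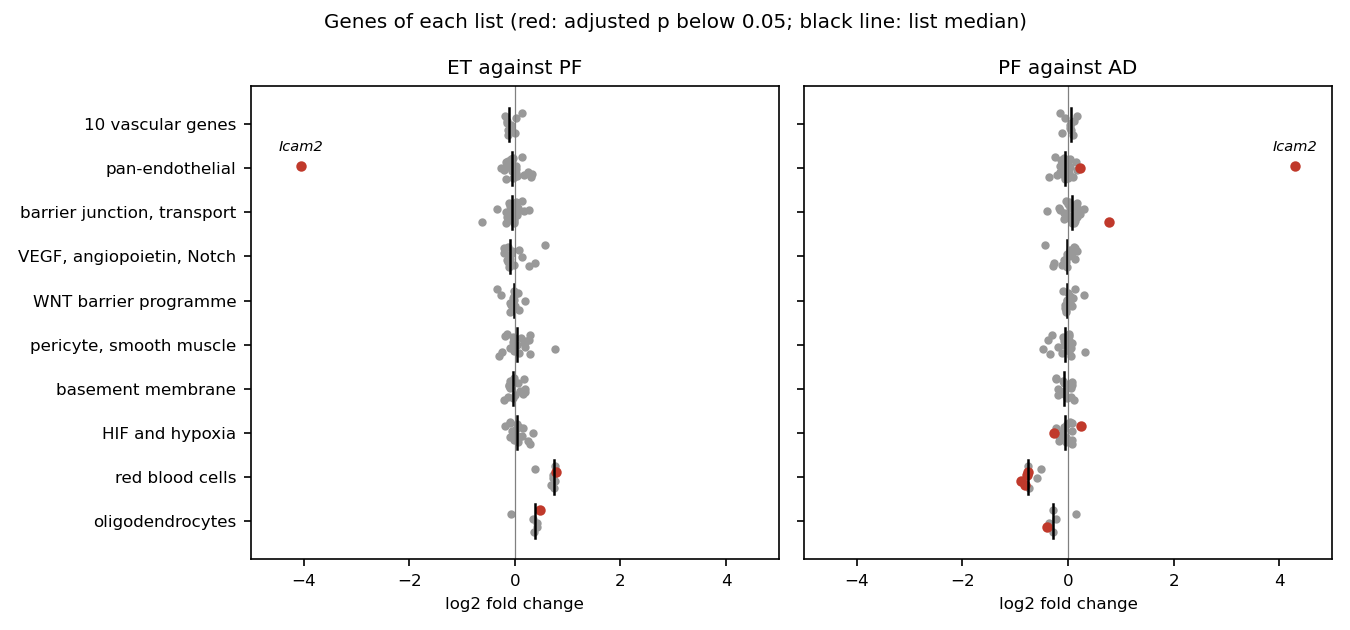
Log2 fold change (horizontal axis) of the genes of each list (vertical axis) in ET against PF and PF against AD, red where the adjusted p was below 0.05, with the list median as a black line. Icam2 stands alone at -4.06 and 4.30, fitted values that depend on counts near 0, while the medians of the vascular lists lie between -0.10 and 0.05 in ET against PF and the red blood cell genes lie at 0.74 and -0.76.

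The genes with the smallest p in each vascular list in ET against PF were as follows, and of these only Icam2 passed a threshold in the edgeR fit described in the methods. Ets1, an endothelial transcription factor gene, had 292 to 339 normalized counts in ET, 359 to 397 in PF and 309.9 to 346 in AD, so the PF libraries of the fits lay above the others in the fits, and ET against PF gave -0.26 (SE 0.06, adjusted p = 0.0534, edgeR). Its adjusted p was below 0.05 in 3 of 19 alternatives, namely DESeq2, 1 fit of the 3 diets and sex as a covariate, and ranged from 0.0117 to 0.495. Of the libraries left out, PF animal 11f6 had 346.2 normalized counts of Ets1, below AD replicate 4 at 350.6. Erg, another such gene, gave -0.20 (SE 0.08). Abcg2, which encodes the efflux pump BCRP, had 92.4 to 159.7 in ET, 136.0 to 262.5 in PF and 63.1 to 131.0 in AD, and gave -0.62 (SE 0.20, adjusted p = 0.169, edgeR). Its adjusted p ranged from 0.0298 to 0.465 over 19 alternatives and was below 0.05 in 1, without both libraries with the most Ttr. Slc16a1, a monocarboxylate transporter gene, gave 0.27 (SE 0.08) and Abcc4 -0.16 (SE 0.08). Pdk1, a HIF target that restrains pyruvate oxidation, gave -0.19 (SE 0.06), Egln3, a HIF prolyl hydroxylase gene that HIF itself induces, 0.35 (SE 0.12), and Egln1 0.14 (SE 0.09). In the pericyte and smooth muscle list, Atp13a5 gave -0.25 (SE 0.08), Mcam 0.21 (SE 0.08) and Abcc9 -0.30 (SE 0.12).

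For the signalling lists, the apelin receptor gene Aplnr gave 0.39 (SE 0.16), Notch4 -0.20 (SE 0.09) and the lymphangiogenic ligand gene Vegfc 0.58 (SE 0.28). The barrier-inducing ligand gene Wnt7b gave -0.33 (SE 0.14), Reck -0.27 (SE 0.15) and Lef1 0.20 (SE 0.15). Of the basement membrane genes, Agrn gave -0.20 (SE 0.07), Itgb5 0.19 (SE 0.09) and Itgav 0.19 (SE 0.11).

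In PF against AD, 2 of 25 pan-endothelial genes, 1 of 26 barrier genes, 2 of 18 HIF genes and 0 of the other 4 vascular lists had an adjusted p below 0.05 by edgeR, against 825 of 15960 genes (5.17%) in all. The lists together thus held no larger share of called genes than the whole table. The genes were Icam2 and 4 others named above. Ets1 was higher in PF at 0.22 (adjusted p = 0.0186), Abcg2 higher at 0.77 (0.0491) and Pdk1 higher at 0.24 (0.0291), while Egln3 was lower at -0.27 (0.0169). The calls of these 4 depended on single libraries and settings: over 20 alternatives the adjusted p stayed below 0.05 in 13 for Ets1, 8 for Abcg2, 10 for Pdk1 and 16 for Egln3, and ranged up to 0.173, 0.172, 0.163 and 0.166. Leaving out PF replicate 1, PF animal 11f5, AD replicate 1 or AD replicate 2 ended the call of Ets1, and leaving out PF animal 11f5 that of Egln3. For Pdk1 these were PF replicates 1, 2 and 3, PF animal 11f5 and AD replicates 2, 3 and 5, and for Abcg2 every single library but PF replicate 2. The HIF list as a whole had a median of -0.06 in PF against AD and 0.04 in ET against PF.

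Among markers of other cells, the red blood cell and oligodendrocyte genes were lower in median in PF than in both other diets. The 8 red blood cell genes had a median log2 fold change of 0.74 in ET against PF, with 8 of 8 above 0 and 1 called higher at an adjusted p below 0.05 (Hbb-b1, 0.78, SE 0.17, adjusted p = 0.0248, edgeR), and of -0.76 in PF against AD, with 0 of 8 above 0 and 4 called lower (Hbb-b1, Hbb, Hba-a1 and Hba-a2). Over all genes at that adjusted p, 87 of 16068 (0.541%) were called higher in ET against PF. In PF against AD, 135 of 15960 genes (0.846%) were called lower. The red blood cell calls depended on the libraries used, and with all 17 libraries or left hippocampi alone all 5 were lost. That of Hbb-b1 in ET against PF was also lost without ET replicate 1, 3 or 5 or PF replicate 1 or 2 (adjusted p up to 0.167 over 19 alternatives), and those in PF against AD were also all lost without PF replicate 1, PF replicate 2 or AD replicate 2, and some of them without AD replicate 1, 3 or 5 (adjusted p up to 0.292 over 20 alternatives). Hbb and Alas2 gave 0.72 (SE 0.19) and 0.75 (SE 0.22) in ET against PF. The summed level of these genes was 9971 to 13654 normalized counts in ET, 4463 to 9855 in PF and 10052 to 14490.1 in AD, so the PF libraries lay below all others in the fits. Of the libraries left out, PF animal 11f6 had 13428, within the range of ET and AD, AD replicate 4 had 7586, within the range of PF, and ET replicate 2 had 18277, above all others. The 10 vascular genes summed to 7498 ± 784 (SD, n = 4) in ET, 7885 ± 344.5 (n = 5) in PF and 7777 ± 452 (n = 5) in AD, a PF mean 1.01 times the AD mean, where the red blood cell sum in PF was 0.576 times that in AD.

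**Figure D5:**
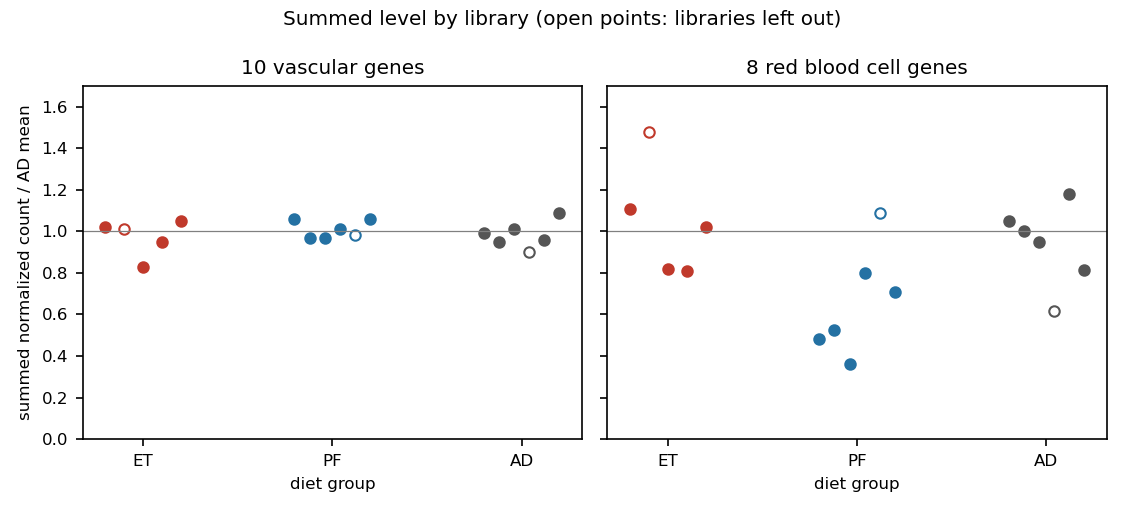
Summed normalized count divided by the AD mean (vertical axis, from 0) for the 10 vascular genes and the 8 red blood cell genes in every library, with open points for the 3 left out. The vascular sums lie between 0.828 and 1.09 in every library, while the red blood cell sums of the 5 PF libraries in the fits lie between 0.362 and 0.8.

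The 6 oligodendrocyte genes gave a median of 0.39 in ET against PF, with Mbp at 0.41 (SE 0.11) and Mobp at 0.34 (SE 0.10), and -0.29 in PF against AD, with Mag called lower (-0.40, SE 0.10). The call of Mag was lost without PF replicate 1, 2 or 3, PF animal 11f5 or AD replicate 2 or 6, in 1 fit of the 3 diets, with left hippocampi alone and without both AD libraries whose sex-linked genes go against the labels. The summed levels of the 6 oligodendrocyte genes were 269433 to 349201 in ET, 197182 to 270136 in PF and 231034 to 328968 in AD. The 8 microglial genes had list medians of 0.01 in ET against PF and 0.09 in PF against AD, and Tmem119 and P2ry12 gave 0.25 (SE 0.10) and 0.33 (SE 0.14) in ET against PF. No gene was called in either comparison among 8 astrocyte, 8 neuron, 10 fibroblast and meningeal and 10 choroid plexus genes, with medians in ET against PF of 0.02, -0.01, 0.21 and 0.13 and in PF against AD of -0.04, 0.03, -0.22 and 1.123. The choroid plexus genes were thus higher in median than in AD in both other diets, 1.123 in PF and 1.18 in ET, with 9 of 10 above 0 and 4 at an unadjusted p below 0.05 in each comparison, and 0 were called. Their summed level in the libraries of the fits was 4290 to 20896 normalized counts in ET, 3362 to 23239 in PF and 2849 to 5603 in AD, and the ranges overlap. The genes of smallest p were Gfap at 0.28 (SE 0.09), Gja1 at -0.16 (SE 0.10) and Agt at 0.14 (SE 0.10) for astrocytes, Syt1 at -0.24 (SE 0.09), Gad1 at -0.11 (SE 0.07) and Rbfox3 at 0.10 (SE 0.09) for neurons, Lum at 0.33 (SE 0.15), Col1a1 at 0.38 (SE 0.20) and Col1a2 at 0.38 (SE 0.25) for fibroblasts, and Otx2 at 0.64 (SE 0.54), Folr1 at 0.53 (SE 0.62) and Prlr at -0.43 (SE 0.73) for choroid plexus. The choroid plexus list also varied among the libraries kept, with the most Ttr in ET replicate 1 and PF replicate 2, at 13757 and 14509.7 normalized counts, and without both, 0 of the 10 vascular genes were called in ET against PF. The part of blood, myelin and dissection in the vascular values was not tested.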

How the data were processed

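Per the labels and the study's methods, the authors aligned stranded mRNA reads to mRatBN7.2 with Bowtie2 2.4.2 and assigned fragments to exons with featureCounts 2.0.1, keeping alignments of mapping quality 10 or more and letting a read count for more than 1 feature. The strand setting is not given in the sources used here. They deposited expected counts, that is counts averaged over 3 technical replicates of each sample, not normalized. Here these were rounded, filtered with filterByExpr on the groups compared, scaled by TMM and tested by edgeR's quasi-likelihood method (version 4.0.16, R 4.3.3) on the whole table, with Benjamini-Hochberg adjustment over all genes tested. Normalized counts are TMM-scaled over the 17 libraries. The standard error is the absolute log2 fold change divided by the square root of F.

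The study's 3 left-out libraries were left out of the fits. The count table names 2 PF males only by animal, so they carry no replicate number. Both count tools were first run on simulated data. No 2 libraries of a diet agreed within sampling noise (40 pairs). P-values measure the spread between littermates. Floors cover counting error only.

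The 10 genes and the 14 lists were chosen with earlier results of these data known. Named from each list were genes past the study's threshold in a diet comparison and the 3 of smallest p in ET against PF, and for likeness the 3 genes of highest Pearson r on log2(CPM + 1) with diet means removed; a few genes this rule names are not reported here. The alternatives were DESeq2 1.42.0, median-of-ratios scaling, no filter, summed technical replicates, all 17 libraries, 1 fit of the 3 diets, sex as a covariate, left hippocampi, a replicate block, other thresholds and leaving out each library. Leaving out pairs of libraries was chosen after seeing the data. Levels and correlations were computed in Python, and RefSeq GRCr8 tables gave overlaps and promoters.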

Additional observations from a re-analysis of the deposited data

Results flagged for a closer look

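None of the 30 groups of 4 or 5 libraries (10 vascular genes in 3 diets) held a library whose gap to its nearest neighbour passed Dixon's 95% critical value, where chance would mark about 5% of such groups, and the interaction of sex and diet was called for 0 of the 10 genes by edgeR and DESeq2.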

How the results depend on the processing

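The number of the 10 vascular genes past the study's threshold was 0 in every diet comparison, sex comparison and interaction under every alternative run, among them an absolute fold change above 1.5, an adjusted p below 0.05 and leaving out each library in turn. At an adjusted p below 0.05, 1 gene was called in 1 of the fits without a library, Vegfa in PF against AD without PF replicate 6 (adjusted p = 0.0399, edgeR). At an unadjusted p below 0.05 the alternatives gave 0 to 3 of the 10 in ET against PF and in PF against AD, 0 in ET against AD, and 0 to 2 for sex and for its interaction with diet.

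With the replicate block, 0 of the 10 genes were called in each diet comparison. In the comparisons with PF this fit also leaves out PF animal 11f5, which has no replicate number, and only replicates 1 and 3 pair ET with PF. In ET against PF the number of all genes past the study's threshold was 197 with the block, against 326 without PF animal 11f5 alone and 349 with it. At an adjusted p below 0.05 these counts were 359, 549 and 664. Same-numbered rats had deviations that correlated at -0.015 and 0.632 in the 2 ET and PF pairs, -0.289 to 0.127 in the 3 ET and AD pairs and -0.026 to 0.072 in the 4 PF and AD pairs. Pairs of unlike number ran from -0.557 to 0.368 (14 ET and PF pairs), -0.471 to 0.654 (17 ET and AD) and -0.358 to 0.377 (16 PF and AD). Whether same-numbered rats share more than a number was not tested, and so few pairs cannot tell. Other counts over all genes that moved by more than 1.5 times were 493 against 327 in PF against AD with no filter, 0 against 2 in ET against AD with the replicate block, 1 against 0 for the interaction without ET replicate 3, and, in ET against AD at an adjusted p below 0.05, 9 with DESeq2, 6 with all 17 libraries, 5 in 1 fit of the 3 diets and 4 without ET replicate 1 or 4, against 2.

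Of the recomputed log2 fold changes of single genes, 543 kept their sign and 37 changed it, all of them uncalled, and the cause was not tested. In ET against PF, Cldn5 (0.01) went to -0.011 with sex as a covariate, -0.054 with the replicate block and -0.15 without both libraries with the most Ttr, Vtn (0.13) to -0.14 with the replicate block, Slc2a1 (0.02) to -0.081 without the Ttr pair, and Kdr (-0.06) to 0.019 with all 17 libraries. In ET against AD, all 17 libraries gave 0.057 for Kdr, 0.0022 for Pdgfrb, 0.032 for Rgs5 and 0.14 for Vtn, and the replicate block 0.016 for Slc2a1 and 0.040 for Vegfa. In PF against AD, Kdr (0.04) went to -0.0081 with sex as a covariate, and without both AD libraries whose sex-linked genes go against the labels Kdr gave -0.033 and Pdgfrb -0.037.

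Leaving out 1 library gave -0.094 to 0.164 for Cldn5, -0.106 to 0.013 for Kdr and -0.040 to 0.082 for Slc2a1 in ET against PF. In ET against AD it gave -0.210 to 0.047 for Cldn5, -0.074 to 0.050 for Kdr, -0.108 to 0.011 for Slc2a1, -0.106 to 0.0078 for Abcb1a, -0.093 to 0.058 for Rgs5, -0.137 to 0.110 for Vtn and -0.087 to 0.037 for Vegfa. In PF against AD it gave -0.027 to 0.108 for Kdr and -0.0062 to 0.084 for Pdgfrb.

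Every one of the 10 genes had 229.3 or more counts in each library. Each comparison rests on 4 or 5 rats per diet from 1 litter per diet.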
